A study of Homo sapiens with 6 samples.

Results

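The genes described here are the matrix metalloproteinases MMP1, MMP2, MMP3, MMP9, MMP10, MMP13 and MMP14 and the tissue inhibitors of metalloproteinases TIMP1, TIMP2 and TIMP3, 10 of the 19777 genes measured. They were taken by name, with every probe set annotated to that gene alone, which gave 20 of the 54613 probe sets that were not controls. A probe set is a group of short oligonucleotides on the array that read the same transcript. Messenger RNA was measured on 6 one-colour arrays of MDA-MB-231 cells, a long-used breast cancer cell line of triple-negative, mesenchymal type. In 3 samples the cells had been transfected with an siRNA targeting ING2, a reader of methylated histone H3 found in SIN3 deacetylase complexes, and in 3 with a non-targeting control siRNA. All 6 came from the same line, the labels name no second ING2 siRNA, and nothing in them says that the replicates were separate cultures, so the p-values reflect only how these samples vary, and that variation may be technical. The labels give RNA collection at 4 days after transfection in the treatment description and at 3 days in the extraction description.

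Matrix metalloproteinases are zinc endopeptidases that cut collagens, proteoglycans and other extracellular proteins. They are made as inactive precursors, held off by a cysteine in the propeptide, and become active when other proteases remove that propeptide. TIMPs bind the active site and block it, and TIMP2 also helps the membrane-bound MMP14 to activate the MMP2 precursor. In breast tumours the family is known for its part in invasion through basement membrane and stroma, and several members are induced through AP-1 sites close to their transcription starts.

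Promoter sequence was given for 4 of the 10 genes, and the 120 bases before the transcription start are shown because MMP10 is the family member with the largest change and the other 3 were not called as genes. The sequences are from RefSeq, build GRCh38.p14, and are written 5′ to 3′ on the strand of the gene, MMP10 from chr11:102780629-102780748 (minus strand), MMP14 from chr14:22836465-22836584 (plus strand), TIMP1 from chrX:47582316-47582435 (plus strand) and TIMP3 from chr22:32801585-32801704 (plus strand). Capitals mark matches to TGANTCA, the AP-1 site with a free middle base, to TATAAA on the strand of the gene, or to the GC box GGGCGG on either strand.
MMP10: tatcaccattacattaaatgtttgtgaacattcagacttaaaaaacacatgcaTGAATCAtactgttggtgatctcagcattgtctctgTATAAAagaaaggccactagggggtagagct
MMP14: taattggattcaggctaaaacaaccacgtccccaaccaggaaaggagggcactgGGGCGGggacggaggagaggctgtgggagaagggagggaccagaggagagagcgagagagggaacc
TIMP1: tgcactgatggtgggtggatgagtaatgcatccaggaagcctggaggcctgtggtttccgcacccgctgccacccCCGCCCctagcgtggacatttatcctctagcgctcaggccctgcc
TIMP3: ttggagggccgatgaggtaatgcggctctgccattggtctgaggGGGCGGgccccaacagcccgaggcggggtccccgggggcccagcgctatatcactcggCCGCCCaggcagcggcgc
Within 250 bases before the start, MMP10 held an AP-1 match at -67 to -61, counted from the start, and a TATA match at -31 to -26. The other 3 promoters held neither of these exact letter patterns, and looser forms of them were not searched. They held GC boxes, 1 in MMP14, 2 in TIMP1 and 5 in TIMP3, while MMP10 held none. Of all 35116 promoters in the table, 6.57% held the AP-1 letters in that window (a motif that reads the same on both strands), 6.80% held TATAAA and 42.6% held a GC box. The ETS-type motif AGGAAG, searched on both strands, was present in TIMP1 at -87 to -82 and in 28.7% of all promoters. A match describes the letters in this window and is not evidence of binding.

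The knockdown was visible in every sample. ING2 read 163, 188 and 161 intensity units after ING2 siRNA, against 1400, 1349 and 1324 units in controls, which is 12.5% of the control level. Median intensity was 78.3 to 81.4 units on the ING2 siRNA arrays and 75.6 to 77.1 units on the control arrays. The interquartile range of log2 intensity over genes was narrower on the ING2 siRNA arrays, without overlap. It was 3.55 to 3.74 there and 3.81 to 3.89 on the control arrays (exact permutation p = 0.1). As a gauge of RNA integrity, the 3′ control probe set for GAPDH exceeded the 5′ probe set by 0.316 ± 0.042 log2 units after ING2 siRNA and by 0.205 ± 0.015 log2 units in controls (SD, n = 3 each, exact permutation p = 0.1), with no overlap. The same measure for ACTB was 0.541 ± 0.096 after ING2 siRNA and 0.490 ± 0.110 in controls (SD, n = 3 each, exact permutation p = 0.6). The part of RNA integrity, or of the narrower range, in the values below was not tested. Among 10 markers of mesenchymal triple-negative cells, VIM, CD44, FN1, AXL and CAV1 lay above the 95th percentile of genes by intensity, while CDH2 lay at percentile 27.8 and TWIST1 at 3.67, and SNAI2 was the only marker of that list called, as lower (-0.36, limma adjusted p = 0.0368). Summed intensity of 10 fibroblast markers was 1200 to 1229 units after ING2 siRNA and 1166 to 1275 units in controls, and that of 7 blood cell markers was 728 to 818 units after ING2 siRNA and 764 to 833 units in controls. Of the fibroblast markers DCN and PDPN were called higher and LUM lower, of the blood markers LYZ was called lower, and no marker was at 0. Their part in the values below was not tested.

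MMP10 and MMP13, both dim, read higher after ING2 siRNA, each by about 1.4-fold. The other 8 genes did not pass the threshold (limma, an adjusted p below 0.05 by Benjamini-Hochberg over the whole table). Thus 2 of 10 members were called higher and 0 lower, against 3.62% of all genes called higher, 4.67% called lower and 8.29% called in either direction. At an unadjusted p under 0.05 the limma fit had 5 of 10 members higher and 0 lower, against 19.4% of all genes higher and 13.6% lower. An ordinary two-sample test called 0 genes of the whole table after adjustment, so that ING2 itself was not called either. The median change of the 10 members was 0.16 on the log2 scale, against 0.06 over all genes. The arrays of the groups did not overlap for 5 members, against 36.5% of all genes. With 10 genes, 1 call more or less moves the share by 10 percentage points. In bulk RNA a change in the number of cells that express a gene and a change in RNA per cell cannot be told apart.

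MMP10 encodes a stromelysin, which cuts proteoglycans, fibronectin and other matrix proteins and can activate other MMP precursors. Its only probe set, 205680_at, read 18.7, 18.2 and 15.6 units after ING2 siRNA, against 13.6, 11.7 and 12.3 units in controls. Every ING2 siRNA array was above every control array, and the nearest pair was ING2 siRNA replicate 3 and control replicate 1. The log2 change was 0.48 (SE 0.10, 1.39-fold, n = 3 per group, limma adjusted p = 0.0295), the 85th largest rise of all genes. By exact two-sided permutation p was 0.1, the lowest value reachable with 3 arrays per group. The signal lay at percentile 7.07 of genes by intensity.

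MMP13 encodes a collagenase that is also active on aggrecan and gelatin. Its probe set, 205959_at, read 38.4, 38.9 and 43.5 units after ING2 siRNA, against 31.9, 29.5 and 26.4 units in controls, again with no overlap. The log2 change was 0.46 (SE 0.10, 1.38-fold, n = 3 per group, limma adjusted p = 0.0295). The signal lay at percentile 17.4. On every array MMP10 and MMP13 read below 47.3 units, the median of 12 measured genes of other tissues, such as albumin and insulin. Without detection calls, whether these readings were above background cannot be told. ING2 siRNA replicate 3 was the highest of its group for MMP13 and the lowest for MMP10, while control replicate 1 was the highest control for both genes.

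Both calls depended on single arrays. They were kept when control replicate 1 or ING2 siRNA replicate 2 was left out. In the other 4 fits that left out a single array, MMP10 had limma adjusted p values of 0.0880 to 0.116 and MMP13 of 0.0718 to 0.123, while only 2 or 3 genes of the whole table passed. The log2 change ran from 0.43 to 0.56 for MMP10 and from 0.39 to 0.53 for MMP13 over these 6 fits. After cyclic loess, MMP10 had a change of 0.37 (limma adjusted p = 0.0497) and MMP13 of 0.34 (0.0620), which did not pass.

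**Figure D1:**
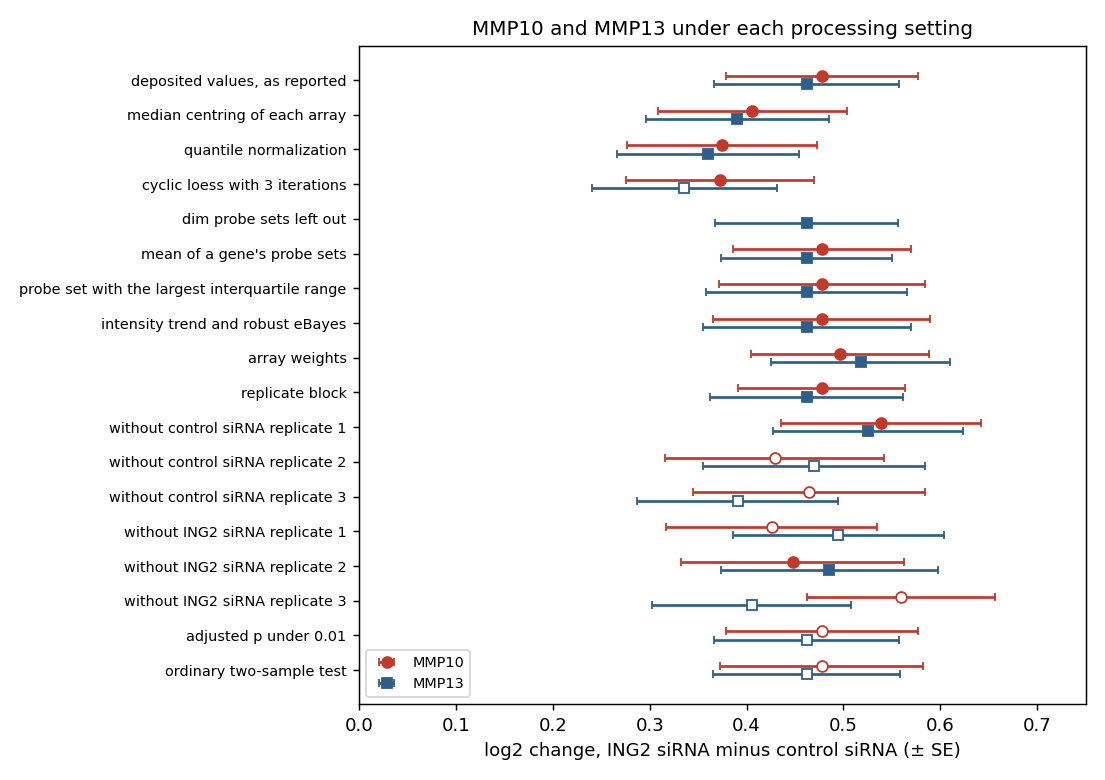
Log2 change of MMP10 (red circles) and MMP13 (blue squares), ING2 siRNA minus control siRNA, on the horizontal axis with limma standard errors, under each setting down the page. Filled symbols passed the threshold of that setting, and estimates lay between 0.34 and 0.56 throughout. The calls were lost in 4 fits that left out an array, at the stricter threshold and in the ordinary two-sample test, which called 0 genes. For MMP13 the call was also lost after cyclic loess.

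MMP3 encodes the other stromelysin of the list, which cuts the same classes of matrix proteins as MMP10. Its probe set, 205828_at, read 11.7, 10.1 and 10.2 units after ING2 siRNA, against 9.22, 9.91 and 8.52 units in controls. The groups were separated only by the gap between 10.1 and 9.91 units. The log2 change was 0.21 (SE 0.09, limma adjusted p = 0.146), at percentile 3.24 of genes by intensity, the dimmest of the 10.

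MMP1 encodes the interstitial collagenase, which opens the triple helix of fibrillar collagen and is linked in breast cancer to spread to bone and lung. Its probe set, 204475_at, read 290, 368 and 293 units after ING2 siRNA, against 278, 363 and 330 units in controls. The groups overlapped, and replicate 2 was the highest in each. The log2 change was -0.03 (SE 0.12, limma adjusted p = 0.878), and its value was 0.04 after quantile normalization.

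MMP2 and MMP9 encode the gelatinases, which degrade denatured collagen and the type IV collagen of basement membranes. MMP9 read 103, 89.3 and 101 units after ING2 siRNA, against 78.1, 74.8 and 88.0 units in controls. All ING2 siRNA arrays were above all control arrays, by a narrow margin between ING2 siRNA replicate 2 and control replicate 3. The log2 change of MMP9 was 0.29 (SE 0.10, limma adjusted p = 0.0763), which did not pass.

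MMP2 had 3 probe sets. The brightest, 1566678_at, read 101, 83.8 and 91.6 units after ING2 siRNA, against 78.0, 74.7 and 80.5 units in controls, without overlap. Its log2 change was 0.24 (SE 0.09, limma adjusted p = 0.102). The probe set 201069_at was tighter, with 66.3, 64.2 and 65.3 units after ING2 siRNA and 50.6, 51.4 and 55.5 units in controls. It had a log2 change of 0.32 (SE 0.08) in the fit over all 54613 probe sets (limma adjusted p = 0.0584), and the third, 1566677_at, had 0.27 (SE 0.15) with overlapping groups. All 3 had values above 0. MMP2 passed as a gene when its probe sets were averaged (0.27, limma adjusted p = 0.0492) or when the probe set of largest interquartile range was taken (0.32, limma adjusted p = 0.0390).

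MMP14 encodes a membrane-bound collagenase that sits at invasive edges of cells and activates MMP2. Its brightest probe set, 160020_at, read 860, 912 and 1071 units after ING2 siRNA, against 932, 843 and 859 units in controls, and the groups overlapped. The log2 change was 0.11 (SE 0.10, limma adjusted p = 0.470). Its other probe sets had values of 0.19, 0.08 and 0.13, so that all 4 were above 0 and none passed (limma adjusted p = 0.271 to 0.645 over the 4 in the probe set fit). In all 4 of them ING2 siRNA replicate 3 was the highest of the 6 arrays.

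**Figure D2:**
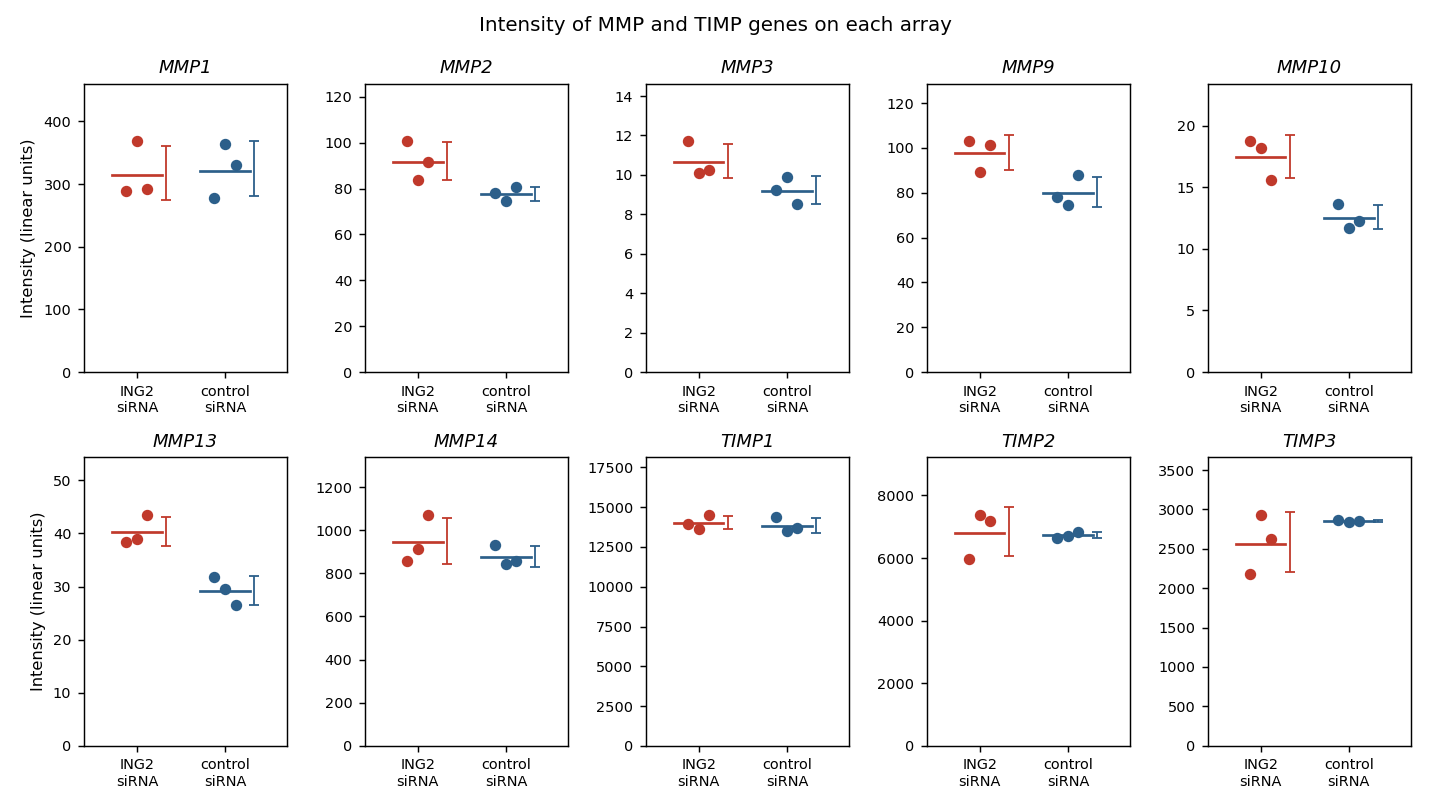
Intensity in linear units (vertical axis, from 0, with its own scale in each panel) on each of the 6 arrays for the probe set with the highest mean of each gene. Points are arrays, ING2 siRNA in red at the left and control siRNA in blue at the right, horizontal bars are geometric means and whiskers are 1 SD on the log2 scale; the groups are separated for MMP2, MMP3, MMP9, MMP10 and MMP13 and overlap for MMP1, MMP14 and the TIMPs.

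The TIMPs were bright, and none was called as a gene. TIMP1, a secreted inhibitor of most MMPs that also binds the MMP9 precursor, read 13968, 13645 and 14508 units after ING2 siRNA, against 14371, 13480 and 13718 units in controls. The log2 change was 0.02 (SE 0.08, limma adjusted p = 0.879), and it was -0.05 after median centring of the arrays. The arrays of the groups were interleaved, and the value lay at percentile 99.6 of genes by intensity.

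TIMP2, the partner of MMP14 in the activation of MMP2, had 3 probe sets that disagreed. The brightest, 231579_s_at, read 5966, 7374 and 7173 units after ING2 siRNA, against 6642, 6699 and 6838 units in controls. The ING2 siRNA arrays lay on either side of the controls, with a log2 change of 0.02 (SE 0.10, limma adjusted p = 0.911). The probe set 224560_at had a value of -0.04. The dimmest, 203167_at, read 977, 1080 and 1191 units after ING2 siRNA, against 971, 785 and 851 units in controls. Its groups did not overlap, although ING2 siRNA replicate 1 and control replicate 1 were close, and its log2 change was 0.32 (SE 0.11, limma adjusted p = 0.107 in the probe set fit). The log2 ratio of 203167_at to 231579_s_at within an array was -2.66 ± 0.10 after ING2 siRNA and -2.96 ± 0.17 in controls (SD, n = 3 each, exact permutation p = 0.1), a comparison chosen after the values were seen.

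TIMP3, which binds to the matrix and also inhibits ADAM proteases, had 4 probe sets that disagreed further. The brightest, 201150_s_at, read 2183, 2928 and 2621 units after ING2 siRNA, against 2869, 2838 and 2858 units in controls. The controls had an SD of 0.008 log2 units, whereas the ING2 siRNA arrays spread on both sides of them with an SD of 0.214 log2 units, and the log2 change was -0.16 (SE 0.11, limma adjusted p = 0.318). The probe set 201148_s_at, by contrast, read 1505, 1623 and 1658 units after ING2 siRNA, against 1201, 1291 and 1259 units in controls. Its groups were well separated, and it rose 1.28-fold, by 0.35 in log2 units (SE 0.09, limma adjusted p = 0.0479 in the probe set fit).

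The other TIMP3 probe sets had values of 0.19 (201147_s_at, no overlap, limma adjusted p = 0.189) and 0.05 (201149_s_at, overlapping, limma adjusted p = 0.760). The log2 ratio of 201148_s_at to 201150_s_at within an array was -0.68 ± 0.16 after ING2 siRNA and -1.19 ± 0.06 in controls (SD, n = 3 each, exact permutation p = 0.1), with a difference of 0.51. This pair was chosen after the values were seen, as the one of 3 ratios to 201150_s_at that differed most, and the others differed by 0.35 and 0.21. Averaging the 4 gave a gene value of 0.11 (limma adjusted p = 0.303). The probe set of largest interquartile range, 201148_s_at, gave a call of higher for the gene (limma adjusted p = 0.0311). As for MMP2, that choice favours probe sets that differ between the groups. Which parts of the transcripts the probe sets read was not analysed here.

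**Figure D3:**
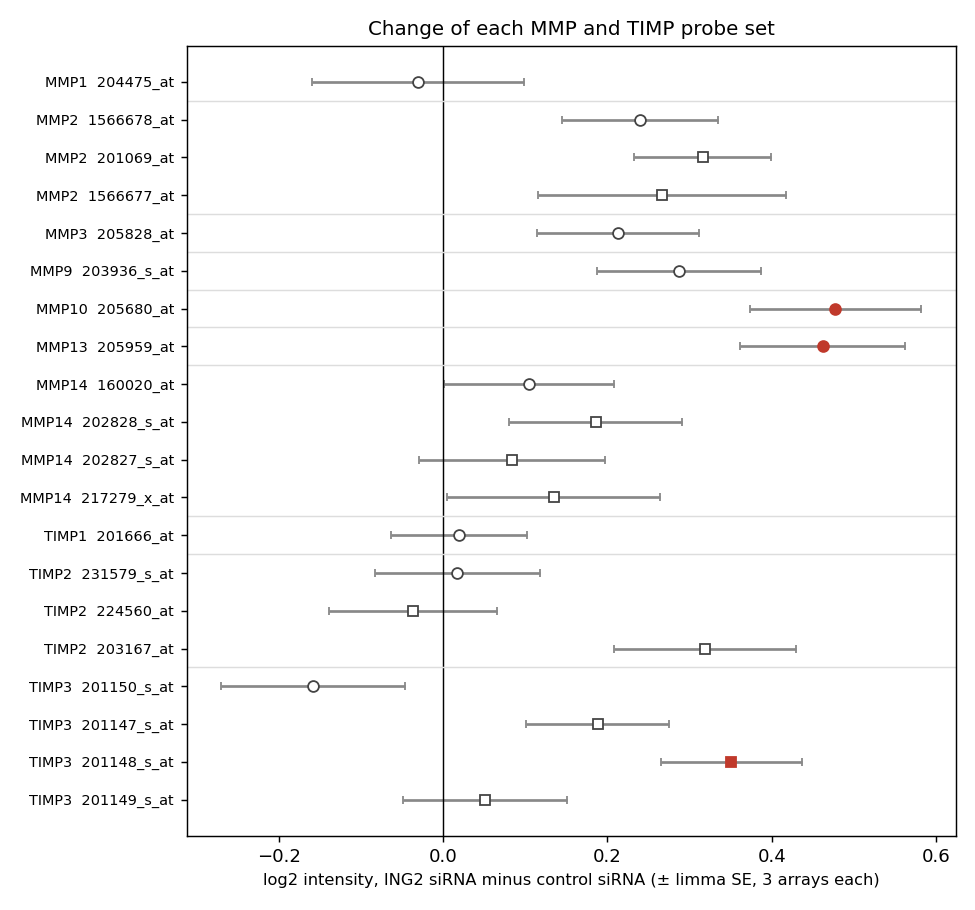
Log2 change of each of the 20 probe sets, ING2 siRNA minus control siRNA, on the horizontal axis with limma standard errors (3 arrays per group), ordered by gene and within a gene by intensity. Circles are the probe sets used for the gene, squares the others, and red filling marks the 3 called higher, which read MMP10, MMP13 and TIMP3; the 3 TIMP2 and 4 TIMP3 probe sets lie on both sides of 0.

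Over all 20 probe sets, 3 were called higher and 0 lower, against 1.64% of all probe sets called higher, 3.64% lower and 5.28% in either direction. The groups did not overlap for 9 of the 20, against 32.8% of all probe sets. The 3 were those of MMP10 (limma adjusted p = 0.0351), MMP13 (0.0351) and 201148_s_at of TIMP3. After quantile normalization and after cyclic loess 1 remained, 201148_s_at (limma adjusted p = 0.0213 and 0.0228). After median centring this TIMP3 probe set lost its call (0.28, limma adjusted p = 0.0971), while those of MMP10 (0.0480) and MMP13 (0.0485) kept theirs. Of the 12 MMP probe sets 11 had a value above 0, and of the 8 TIMP probe sets 6 did, against 62.5% of all probe sets.

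The direction of a gene moved with its brightness in the whole table, and the family spans nearly the whole range. When all genes were put in 10 bins of equal size by mean intensity, the median log2 change was 0.12 in the dimmest bin, which held MMP3 and MMP10, and 0.15 in the next, which held MMP13. It was also 0.15 in the bin of MMP2 and MMP9, -0.01 in that of MMP1, -0.04 in that of MMP14 and -0.09 in the brightest, which held the 3 TIMPs. Relative to the median of their own bin, the members stood at 0.36 for MMP10, 0.31 for MMP13, 0.15 for MMP14, 0.14 for MMP9, 0.11 for TIMP1 and TIMP2, 0.09 for MMP2 and MMP3, -0.02 for MMP1 and -0.07 for TIMP3. In the bins of MMP10 and MMP13, 3.13% and 6.17% of genes were called higher. Among 12 measured genes of other tissues, such as albumin and insulin, none was called and the median change was 0.11, with 11 of them below the median intensity. The share of calls that were higher was 43.7% in the deposited values, 15.2% after median centring, 60.3% after quantile normalization and 39.5% after cyclic loess. In these 3 scalings 6, 7 and 6 of the 7 MMPs had a value above 0, as 6 did in the deposited values, and of the 3 TIMPs 0, 2 and 2 did, against 2.

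**Figure D4:**
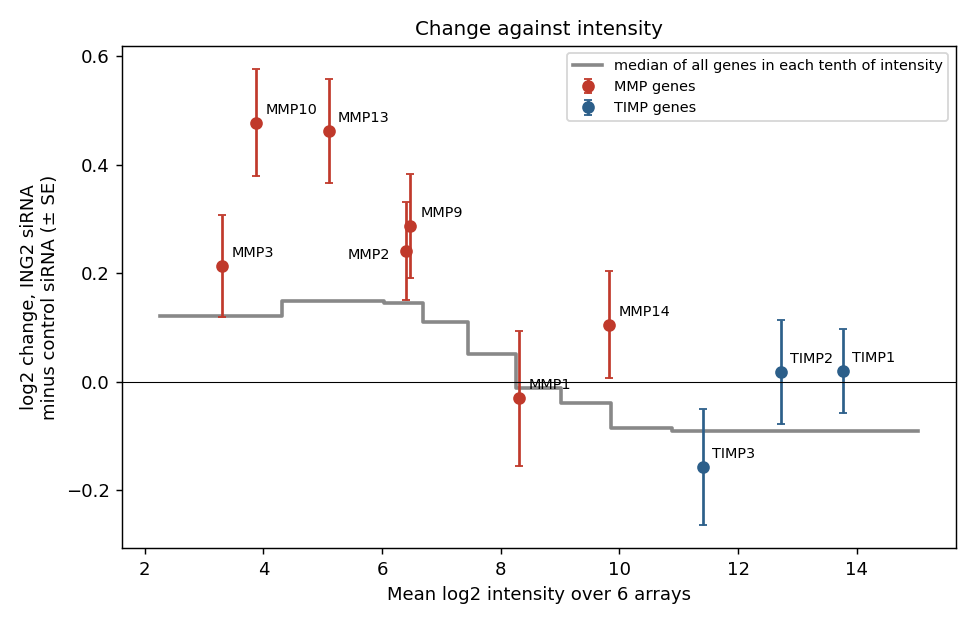
Log2 change of each gene, ING2 siRNA minus control siRNA with limma standard errors (vertical axis), against its mean log2 intensity over the 6 arrays (horizontal axis). The grey steps give the median change of all genes in each of 10 intensity bins, from 0.12 in the dimmest to -0.09 in the brightest; MMP10 and MMP13 stand 0.36 and 0.31 above their steps.

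MMP10 and MMP13 lie in a cluster of MMP genes on chromosome 11, where RefSeq places MMP7, MMP20, MMP27, MMP8, MMP10, MMP1, MMP3, MMP12 and MMP13 in this order with no other protein-coding gene between them. All 9 were measured and 2 were called higher, MMP10 and MMP13 themselves, against 3.62% of all genes. Of the 9, 6 had a value above 0, against 61.7% of all genes. The direct neighbours of MMP10 had values of -0.02 for MMP8 (limma adjusted p = 0.878) and -0.03 for MMP1, and that of MMP13 within the cluster had 0.12 for MMP12, the macrophage elastase (limma adjusted p = 0.340). MMP27 had 0.34 (SE 0.13, limma adjusted p = 0.113), MMP20, which acts in tooth enamel, had 0.20 (0.222) and MMP7 had -0.02 (0.924). The cluster median was 0.20.

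Of the 16 measured genes of the list that holds the other MMPs and TIMP4, 0 were called in either direction by limma, with 7 at an unadjusted p under 0.05, against 32.9% of all genes in either direction, and a median of 0.19. The 2 with the smallest p had values of opposite sign. MMP25, a membrane-anchored MMP of leukocytes, read 173, 186 and 186 units after ING2 siRNA, against 154, 136 and 150 units in controls (log2 change 0.31, SE 0.08, limma adjusted p = 0.0503). MMP25 passed in several alternatives, among them quantile normalization (0.31, limma adjusted p = 0.0483), where 60.3% of all calls were higher. It passed in 1 of the 6 fits that left out an array, and its other probe set had 0.03. TIMP4, the remaining inhibitor of the family, read 201, 229 and 202 units after ING2 siRNA, against 245, 277 and 270 units in controls. Its groups did not overlap, and the log2 change was -0.33 (SE 0.09, limma adjusted p = 0.0523). TIMP4 passed in several alternatives, among them median centring (-0.40, limma adjusted p = 0.0389), where only 15.2% of all calls were higher. It passed in 2 of the 6 fits that left out an array.

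Genes that activate MMP precursors or belong to the plasminogen system had 0 calls among 14 measured (6 at an unadjusted p under 0.05 in limma, against the same 32.9% of all genes, median 0.12). CTSG, a neutrophil serine protease, had a log2 change of 0.35 (SE 0.10, limma adjusted p = 0.0598). FURIN, the convertase that activates MMP14 inside the cell, read 422, 436 and 445 units after ING2 siRNA, against 377, 380 and 343 units in controls. The groups were separate, with a log2 change of 0.25 (SE 0.08, limma adjusted p = 0.0757). FURIN passed after quantile normalization (0.33, limma adjusted p = 0.0387), where 60.3% of all calls were higher. It passed in 0 of the 6 fits that left out an array.

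Surface partners, clearance receptors and other inhibitors also had 0 calls, among 12 measured (5 at an unadjusted p under 0.05 in limma, against 32.9% of all genes, median 0.13). TFPI2, a matrix-bound inhibitor of plasmin and other serine proteases, read 3719, 3392 and 3341 units after ING2 siRNA, against 4331, 4161 and 4117 units in controls. Every ING2 siRNA array was lower, but the log2 change of -0.27 did not pass (SE 0.08, limma adjusted p = 0.0604). TFPI2 passed after median centring (-0.34, limma adjusted p = 0.0333), where only 15.2% of all calls were higher. It passed in 0 of the 6 fits that left out an array. LRP1, the endocytic receptor that clears proteases bound to inhibitors, had 0.36 (SE 0.11, limma adjusted p = 0.0626). That was the largest value of its 4 probe sets, which were all above 0, the lowest at 0.01.

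RECK, a membrane-anchored inhibitor of MMPs, is named after its values were seen. It read 209, 267 and 272 units after ING2 siRNA, against 274, 377 and 396 units in controls, the lowest value of the list at -0.48 (SE 0.15, limma adjusted p = 0.0671). The highest ING2 siRNA array and the lowest control array were nearly equal. It had 5 probe sets, 4 of them with log2 changes below 0, and the highest was 0.15. RECK passed as lower with array weights (-0.56, limma adjusted p = 0.0214), where 1931 of all genes were called lower. Of the 6 fits that left out an array it passed in 1, without control replicate 1 (-0.64, limma adjusted p = 0.0183). Over those 6 fits the log2 change reached -0.35 and the limma adjusted p 0.201.

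Among 16 transcription factors known to bind MMP promoters, 1 was called higher and 0 lower, against 3.62% and 4.67% of all genes. At an unadjusted p under 0.05 in limma there were 6, against 32.9% of all genes in either direction, and the median was 0.14. FOSL1, which encodes the AP-1 subunit FRA1, read 1369, 1475 and 1915 units after ING2 siRNA, against 1066, 1059 and 1043 units in controls. The controls were tight and every ING2 siRNA array lay above them, with replicate 3 the highest. FOSL1 rose by 0.57 log2 units (SE 0.12, limma adjusted p = 0.0295), and by 0.69 after quantile normalization and 0.67 after cyclic loess. The call was kept in 2 of the 6 fits that left out an array (log2 change 0.43 to 0.67, limma adjusted p = 0.0244 to 0.116). In the fits that lost it, only 2 or 3 genes of the whole table passed. FOS (0.21), FOSB (0.18), JUN (0.11), JUNB (0.16), JUND (0.07) and FOSL2 (-0.11) of the same AP-1 group did not pass, with limma adjusted p values of 0.187 or more. The ETS factor genes ETS1 (-0.22) and ETV5 (0.27) did not pass either, and ETV5 passed after quantile normalization (0.39, limma adjusted p = 0.0325). With RELA, a subunit of NF-kB (0.31, limma adjusted p = 0.0531), 3 factors were called higher after quantile normalization and after cyclic loess. Of all 19777 genes, 944 and 447 were called higher in these scalings. SP1, a factor that binds GC boxes, had 0.17 by its brightest probe set (limma adjusted p = 0.258). Its most variable probe set, chosen by the range over both groups together, was called lower (-0.69, limma adjusted p = 0.00704).

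**Figure D5:**
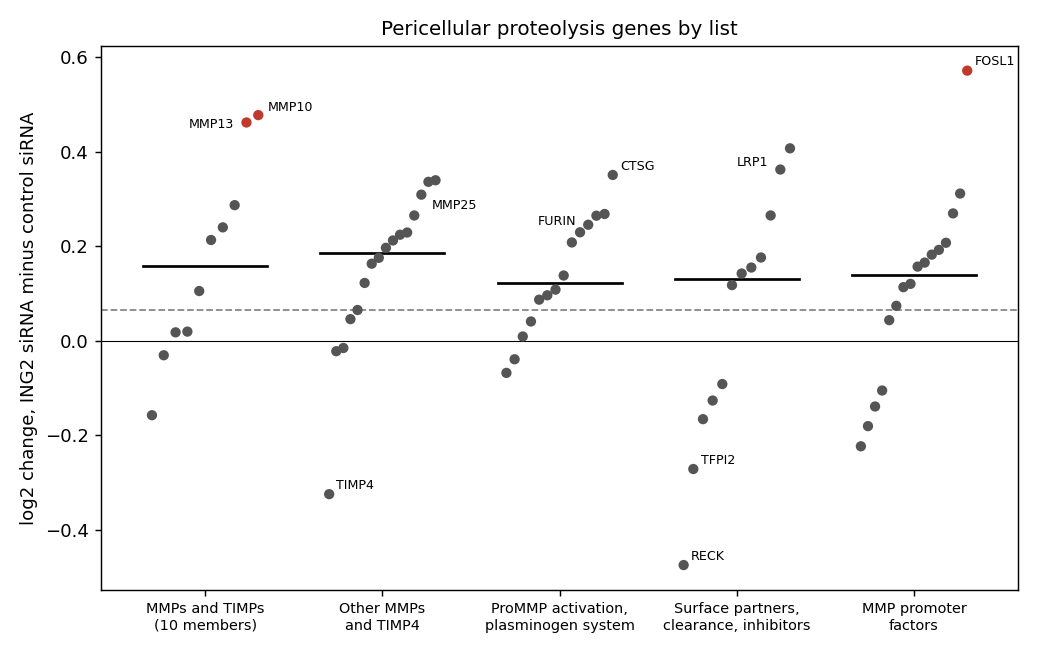
Log2 change of each measured gene, ING2 siRNA minus control siRNA (vertical axis), in the 10 MMPs and TIMPs and in 4 lists of related genes, each ordered from low to high. Red points passed the threshold (MMP10, MMP13 and FOSL1), black bars are list medians from 0.12 to 0.19, and the dashed line is the median of all genes at 0.06.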

How the data were processed

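Total RNA of 6 samples was amplified and hybridised to 1 array each, per the labels' protocols. The intensity values deposited by the authors, 1 per probe set and array, are linear. The submitters' processing notes name RMA and R 2.12, with the step to linear values not given in the sources used here. Values ran from 4.05 to 33803, and precision is limited by the number of arrays.

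The log2 of each value was taken with no pseudocount. Of 54675 probe sets 62 controls were left out, and 41091 named 1 gene, 1801 several and 11721 none. Symbols come from a platform annotation of GEO, updated through gene identifiers to RefSeq (19735 of 19777 genes matched). Each gene was read by its probe set with the highest mean. Groups were compared with limma 3.58.1 in R 4.3.3 (lmFit, eBayes, no covariate), over all genes and, separately, over all probe sets, and single values with exact two-sided permutation tests. The method was tested on simulated data.

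The members, gene lists and rule for named genes were chosen with earlier results of these data known. The rule names all members, ING2 and, in each list, the genes past the threshold (at most 3 rises and 3 falls), or the 2 with the smallest p. Neighbours on chromosome 11, the AP-1 genes, some ETS genes, RELA, SP1 and some cell type markers are named besides. Some genes of the lists are not reported here. Of 10 luminal breast markers EPCAM was called lower and 9 were not called. Alternatives were other scalings, a filter on dim probe sets, other probe set rules, other moderation, array weights, a replicate block, leaving out each array and a stricter threshold.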

Additional observations from a re-analysis of the deposited data

How the results depend on the processing

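Of the 10 members, MMP2, MMP3, MMP9, MMP10, MMP13 and MMP14 kept a positive log2 change in every fit that measured them, and the number of members called lower was 0 throughout. The number of member genes called higher, 2 in the deposited values, was 1 after cyclic loess, 1 with dim probe sets left out (MMP10 and MMP3 fell below that filter), 4 when each gene was read by its most variable probe set (by interquartile range), and 0 at an adjusted p under 0.01 and in the ordinary two-sample test. Member probe sets called higher, 3 in the deposited values, numbered 1 after quantile normalization and cyclic loess and 0 at the stricter threshold and in the ordinary test. Values that changed sign were those of TIMP1 (-0.0524) and TIMP2 (-0.0540) after median centring, MMP1 (0.0443) after quantile normalization, and TIMP3 with the mean of probe sets (0.11) and the most variable probe set (0.35). Apart from the probe set rule and the filter, the cause was not tested. The most variable probe set was chosen by its range over both groups together, which favours probe sets that differ between them. Over the 6 fits that left out an array, members called higher ranged from 0 to 2, member probe sets from 0 to 2, and the log2 change from -0.144 to 0.0567 for MMP1, from -0.00477 to 0.0457 for TIMP1 and from -0.0400 to 0.113 for TIMP2.

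Genes called over the whole table, 716 higher and 924 lower, numbered 260 and 1450 after median centring, 447 higher after cyclic loess, 1229 and 1391 with the mean of probe sets, 1307 and 1953 with the most variable probe set, 1436 lower with an intensity trend, 1927 and 1931 with array weights, 0 and 2 at an adjusted p under 0.01, and 0 and 0 in the ordinary test. Without an array they ranged from 0 to 1227 higher and from 2 to 1630 lower. Probe sets called, 897 higher and 1989 lower, numbered 279 higher after median centring, 564 higher after quantile normalization, 308 higher after cyclic loess, 2435 and 3613 with array weights, 3 and 273 at the stricter threshold, and 2 and 2 in the ordinary test. Without an array they ranged from 8 to 1266 higher and from 210 to 2956 lower.

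With the replicate number as a block, 1630 genes were higher and 1878 lower, 1414 probe sets higher and 3135 lower, and MMP9 passed as well (0.29, limma adjusted p = 0.0434), as did, among the related genes, CTSG, MMP16, MMP25, RELA, TIMP4, TFPI2 and RECK (-0.48 for RECK, limma adjusted p = 0.00999). The labels do not say that the numbers pair samples. Deviations of same-numbered arrays correlated at 0.263, 0.291 and -0.019, and those of differently numbered arrays at -0.311 to 0.0996. Whether samples with the same number were handled together was not tested. Arrays without detection calls do not show which of the dimmest members were above background.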
